A study of Arabidopsis thaliana with 42 samples.

Results

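The CYP96A genes encode cytochrome P450 enzymes of Arabidopsis thaliana. The family was taken as a list of 10 loci, and a probe set belongs to it when its deposited locus entry names one of them. The family was chosen by the log2 values of CYP96A9, which had been seen to stand far above its controls in seedlings with an activated KANADI1 fusion, so that difference is described below without a test. All 10 loci had a probe set, which makes 10 of the 22810 probe sets on the array. Of these, 4 (CYP96A1, CYP96A4, CYP96A9 and CYP96A12) had a p-value in the authors' deposited table and were tested among 16129 probe sets. The other 6 (CYP96A2, CYP96A3, CYP96A5, CYP96A8, CYP96A10 and CYP96A15) had none there, were not tested, and are given by their values.

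RNA of whole 7-day-old seedlings was measured on 42 Affymetrix ATH1 arrays in 14 groups of 3. The wild type was Columbia without a transgene. The line 35S::GR-REV expresses REVOLUTA (REV), and the line 35S::KAN1-GR expresses KANADI1 (KAN1), each joined to a glucocorticoid receptor domain that binds steroids and driven by the 35S promoter, which is active in most tissues. Each construct is represented by a single name in the labels, and the number of independent lines is not given in the sources used here. Seedlings of a sample shared a flask of liquid MS medium with 1% sucrose, and every time point had its own flask. Dexamethasone (DEX, 50 µM), a steroid that releases such fusions into the nucleus, was given for 30, 60 or 120 min. The 0 min samples were frozen before DEX, and the wild type received DEX as well. GR-REV and wild-type replicates 1 to 3 were grown together (day 1) and frozen at 0, 30, 60 and 120 min. KAN1-GR and wild-type replicates 4 to 6 were grown together at another time (day 2) and frozen at 0, 30 and 60 min.

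P450s of the CYP96A family belong to the same clan as the CYP86 and CYP94 fatty acid hydroxylases. Their best known member is CYP96A15, also called MAH1, the mid-chain alkane hydroxylase that turns alkanes of the stem cuticular wax into secondary alcohols and ketones. Wax is made and exported by epidermal cells, from very-long-chain fatty acids built by the elongase complex. REV is one of the HD-ZIP III transcription factors and KAN1 one of the GARP factors, and they act on opposite sides of the developing leaf, REV adaxially and KAN1 abaxially.

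All values are log2 values centred by the authors on the wild type before DEX, so that the 6 wild-type arrays at 0 min have a median of 0 and a value is a level relative to them, not an absolute level. Levels of different probe sets cannot be set against each other. Seedlings were taken whole, so fewer cells of a type and less RNA per cell cannot be told apart. A DEX response is the change of a line from its 0 min less the change of the wild type of the same day, and a call is an adjusted p under 0.05 (limma, Benjamini-Hochberg over all 16129 tested probe sets). The number of arrays limits the precision, and the median standard error (SE) of a response was 0.213. The probe set for REV had group means of 4.14 to 4.41 in GR-REV and at most 0.38 in wild type. The probe set for KAN1 had group means of 8.57 to 9.19 in KAN1-GR and at most 0.23 in wild type. Both transgenic lines therefore carried their labelled transcript at every time.

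CYP96A9 (AT4G39480) stood near its wild-type starting level in most groups and far above it in KAN1-GR after DEX. In KAN1-GR its 3 arrays read -0.03, 0.02 and -0.09 at 0 min, then 3.76, 3.41 and 3.04 at 30 min, and 4.50, 4.32 and 4.64 at 60 min. The group means were 3.40 ± 0.36 (SD, n = 3) at 30 min and 4.49 ± 0.16 at 60 min, and the 2 groups did not overlap, with means 1.08 apart. Wild type of the same day read 0.00, -0.21 and 0.00 at 0 min, 0.35, 0.38 and 0.33 at 30 min, and 0.01, 0.42 and -0.10 at 60 min. Every KAN1-GR array after DEX was thus above every wild-type array.

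**Figure D1:**
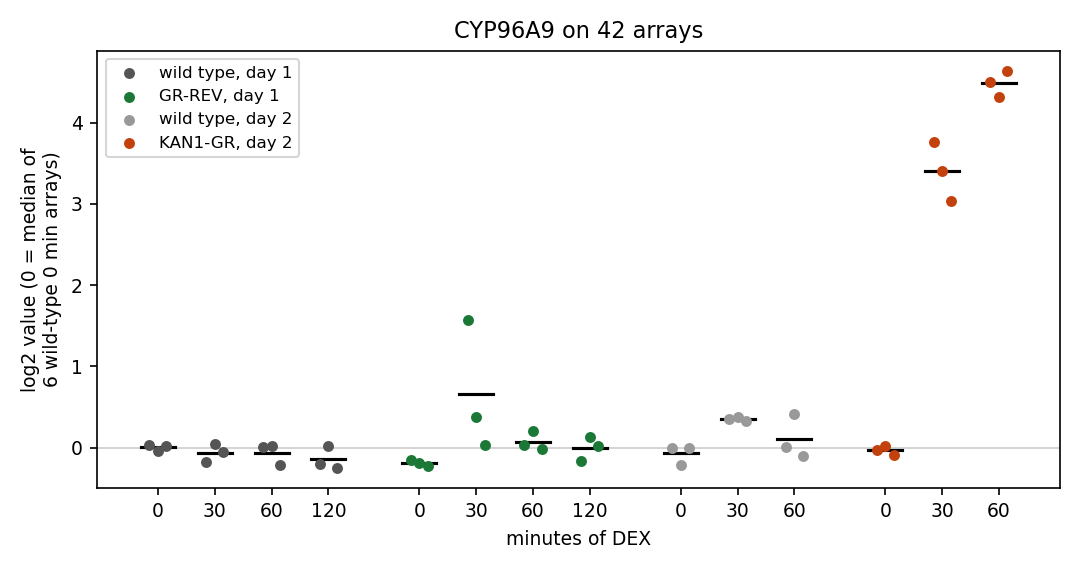
CYP96A9 on each of the 42 arrays, as log2 values relative to wild type at 0 min (y axis) by minutes of DEX (x axis), with points for arrays, horizontal bars for the means of 3 arrays and colours for line and day. The 6 KAN1-GR arrays at 30 and 60 min lie between 3.04 and 4.64, and the highest of the other 36 arrays, a GR-REV array at 30 min, is at 1.57.

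Over the other 36 arrays the lowest value of CYP96A9 was -0.25, the median 0.01 and the highest 1.57, with 35 of them within 0.5 of 0. The KAN1-GR response was 3.01 ± 0.30 (SE) at 30 min, an 8.07-fold difference, and 4.34 ± 0.30 at 60 min, a 20.2-fold difference. Among the 16129 tested probe sets this placed CYP96A9 4th from the highest at 30 min and 1st at 60 min. Leaving out any single array moved the responses to between 2.83 and 3.19 at 30 min and between 4.23 and 4.49 at 60 min. These responses chose the family, so the ranks and ranges are descriptions.

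In GR-REV the CYP96A9 arrays read -0.15, -0.19 and -0.22 at 0 min, and 1.57, 0.38 and 0.03 at 30 min. They read 0.03, 0.21 and -0.02 at 60 min, and -0.16, 0.13 and 0.02 at 120 min. A single array at 30 min stood above the rest, and the other 2 lay within 0.5 of 0. The wild type of day 1 read 0.03, -0.04 and 0.02 at 0 min, -0.18, 0.04 and -0.05 at 30 min, 0.01, 0.02 and -0.21 at 60 min, and -0.20, 0.02 and -0.25 at 120 min. At 30 min the wild-type and GR-REV ranges overlapped.

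The GR-REV response of CYP96A9 at 30 min was 0.91 ± 0.30 (95% interval 0.31 to 1.52) and did not pass the test (limma, adjusted p = 0.151). It passed when GR-REV at 30 min was set against wild type at that time alone (0.73, limma adjusted p = 0.0235), against its own 0 min alone (0.85, limma adjusted p = 0.0049), or without GR-REV 30 min replicate 3 (1.23, limma adjusted p = 0.0147). Without GR-REV 30 min replicate 1, the array at 1.57, the response was 0.46 (limma adjusted p = 0.406). Responses of 0.32 ± 0.30 at 60 min (limma adjusted p = 0.67) and 0.33 ± 0.30 at 120 min (limma adjusted p = 0.667) did not pass. No tested member was called in the GR-REV responses, against a background of 1.38% of tested probe sets called at 30 min, 4.36% at 60 min and 3.84% at 120 min. At an unadjusted p under 0.05 there was 1 member at 30 min (CYP96A9), 1 at 60 min (CYP96A4) and 0 at 120 min.

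No wild-type response of CYP96A9 passed the test. Averaged over days it was 0.18 ± 0.15 at 30 min (limma adjusted p = 0.59) and 0.06 ± 0.15 at 60 min (limma adjusted p = 0.906), and on day 1 it was -0.15 ± 0.21 at 120 min (limma adjusted p = 0.764). The 3 wild-type arrays of day 2 at 30 min lay at 0.33 to 0.38, above all 3 of day 1, and the day difference of the response, 0.49 ± 0.30 (95% interval -0.11 to 1.09), did not pass (limma adjusted p = 0.388). With arrays weighted by quality it was 0.57 and passed (limma adjusted p = 0.0465).

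Ordered by mean, CYP96A9 was lowest in GR-REV at 0 min (-0.18 ± 0.04, SD) and highest in KAN1-GR at 60 min. Neighbouring groups in this order overlapped in their arrays up to and including GR-REV at 30 min (0.66 ± 0.81), which was the 12th of 14. The 2 KAN1-GR groups after DEX stood apart from all groups below them.

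The other 3 tested members had far smaller values in the comparisons that chose CYP96A9. The KAN1-GR response at 60 min was 0.76 ± 0.59 for CYP96A4, 0.30 ± 0.20 for CYP96A1 and -0.30 ± 0.33 for CYP96A12, and at 30 min it was 0.44 ± 0.59, 0.14 ± 0.20 and -0.19 ± 0.33. CYP96A9 was the 1 member past the threshold at either time, where 2.4% of tested probe sets passed at 30 min and 6.84% at 60 min. Since these responses chose the family, nothing is read from the count.

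**Figure D2:**
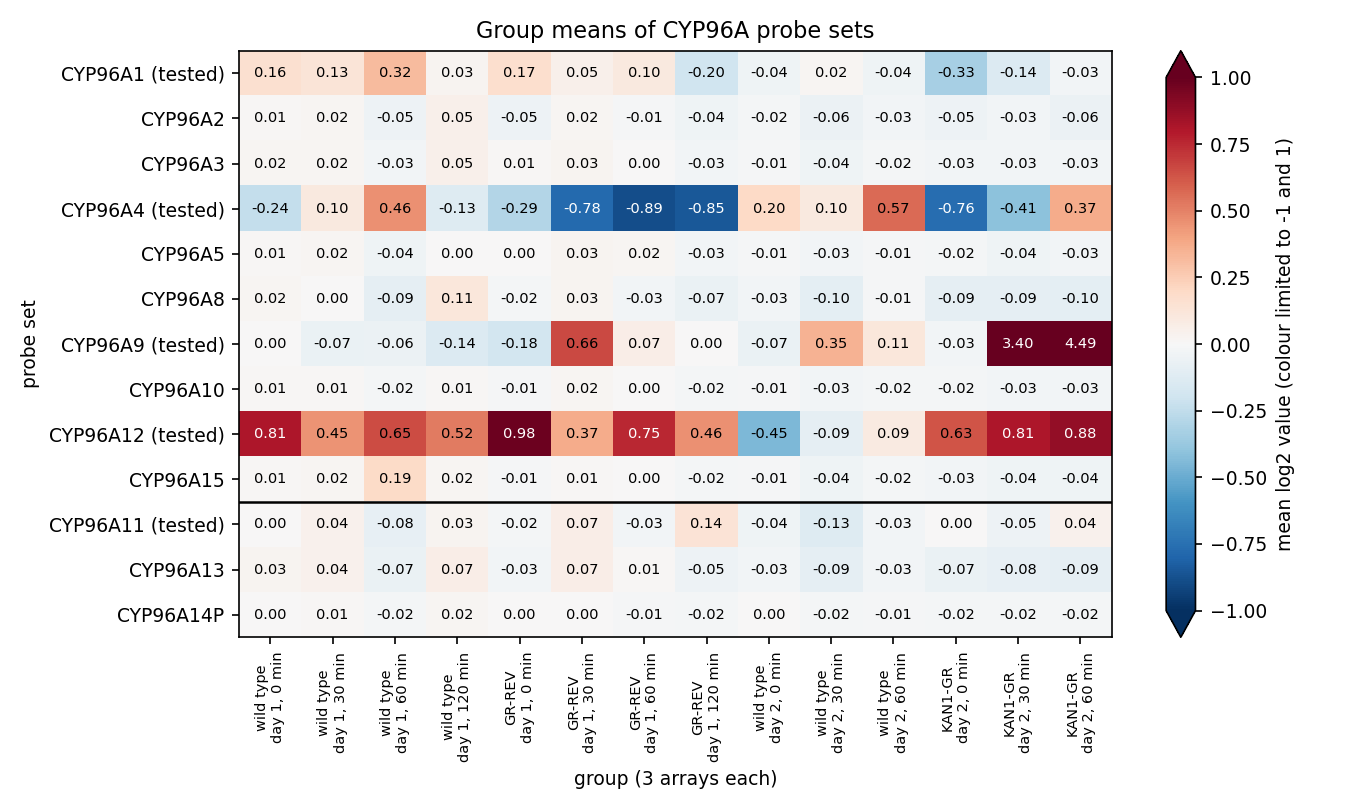
Mean log2 value of each CYP96A probe set (y axis) in the 14 groups of 3 arrays (x axis), with colour limited to values between -1 and 1 and the mean printed in each cell. Rows above the line are the 10 listed members and rows below it 3 further CYP96A loci. CYP96A9 reaches 3.40 and 4.49 in KAN1-GR after DEX, while the 6 untested members stay between -0.10 and 0.19.

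CYP96A12 (AT4G39510) differed between lines and days before any DEX was given. At 0 min its arrays read 0.93, 0.42 and 0.55 in KAN1-GR and -0.33, -0.43 and -0.60 in wild type of the same day. On day 1 they read 1.34, 0.75 and 0.33 in wild type and 0.89, 0.73 and 1.31 in GR-REV. Wild type of day 2 was below all 9 other arrays at 0 min, and KAN1-GR overlapped with wild type of day 1.

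CYP96A12 was higher in KAN1-GR than in wild type of its day at 0 min by 1.09 ± 0.23 (2.12-fold, limma adjusted p = 0.00274), with all 3 arrays of the line above all 3 of the wild type. It was 1 of 4 tested members called in that comparison, in which 10.7% of tested probe sets were called. The call held on leaving out each array in turn (0.94 to 1.19). Against the wild types of both days the difference was 0.46 and did not pass (limma adjusted p = 0.217).

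Wild type itself was lower on day 2 than on day 1 at 0 min by 1.26 on the log2 scale (SE 0.23, 2.4-fold, limma adjusted p = 0.000358), 1 of 4 members called where 22.9% of tested probe sets were. The call held on leaving out each array (-1.5 to -1.0), and the difference was -1.99 after quantile normalisation. Both comparisons share the wild-type arrays of day 2. Between GR-REV and its wild type at 0 min the difference was 0.17 ± 0.23 (95% interval -0.30 to 0.64, limma adjusted p = 0.702). No member was called there, at an adjusted or an unadjusted p under 0.05, where 15.9% of tested probe sets were called.

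The level of CYP96A12 in KAN1-GR stayed up through the time course. Its arrays read 0.53, 0.82 and 1.08 at 30 min and 0.82, 0.99 and 0.82 at 60 min, against 0.04, 0.29 and -0.59 and then 0.12, 0.11 and 0.04 in wild type. The line exceeded wild type by 0.90 at 30 min and 0.79 at 60 min with no overlap at either time, much as before DEX. Over all times the 9 KAN1-GR arrays had a lowest value of 0.42, a median of 0.82 and a highest of 1.08, and the 9 wild-type arrays of day 2 had -0.60, 0.04 and 0.29. The 24 arrays of day 1 had -0.19, 0.56 and 1.34.

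Markers of other cells also differed between groups at 0 min. Over all tested probe sets 22.9% were called between wild type of day 2 and day 1. The shares were 10.7% for KAN1-GR and 15.9% for GR-REV, each against its wild type. Of 5 shoot epidermis genes, ATML1, PDF2 and PDF1 were lower in wild type on day 2 than on day 1 (by -0.34, -0.69 and -0.76, called) and higher in KAN1-GR than in wild type of day 2 (by 0.48, 0.57 and 1.08, called), while FDH and ACR4 were not called in either. Against the wild types of both days ATML1 (0.31) and PDF2 (0.23) did not pass in KAN1-GR, and the day difference of ATML1 did not pass without any 1 of its 6 arrays (-0.38 to -0.29). The mean level of these 5 genes ran from 0.09 to 0.37 over the arrays of day 1 wild type, from -0.26 to -0.14 in day 2 wild type and from 0.27 to 0.35 in KAN1-GR. Of 4 root epidermis and root hair genes, all 4 were higher in wild type on day 2 (median 1.33) and EXPA7 and EXPA18 were lower in KAN1-GR. Against the wild types of both days EXPA7 (-0.79) and EXPA18 (-0.57) did not pass there, and EXPA18 lost its call under 7 alternatives in all. Their mean level ran from -1.07 to -0.25, from 0.32 to 0.73 and from -0.44 to -0.14 over the same 3 groups. In GR-REV, where CYP96A12 did not differ from wild type by the test (0.17), EXPA7 (-0.86), EXPA18 (-2.02) and COBL9 (-1.17) were called lower and none of the 5 shoot epidermis genes was called. These calls were lost under 8 alternatives for EXPA7 and 3 for COBL9. No marker can be said to be absent, since absolute levels are not kept, and the part of these cell types in the CYP96A12 differences was not tested.

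No DEX response of CYP96A12 passed the test. In wild type its change was 0.00 ± 0.16 at 30 min, 0.19 ± 0.16 by 60 min and -0.28 ± 0.23 by 120 min, and GR-REV responses were -0.25, -0.07 and -0.23, each ± 0.33. No member was called in the wild-type responses, where 3.87%, 2.33% and 5.13% of tested probe sets were at 30, 60 and 120 min. At an unadjusted p under 0.05 there were 0 members at each of these times. The wild-type response differed between days by 0.73 ± 0.33 at 30 min (limma, unadjusted p = 0.0344, adjusted p = 0.227) and 0.70 ± 0.33 at 60 min (limma, unadjusted p = 0.0411, adjusted p = 0.282). In these 2 comparisons no member was called, against 3.45% and 1.4% of tested probe sets, and CYP96A12 was the 1 member at an unadjusted p under 0.05.

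**Figure D3:**
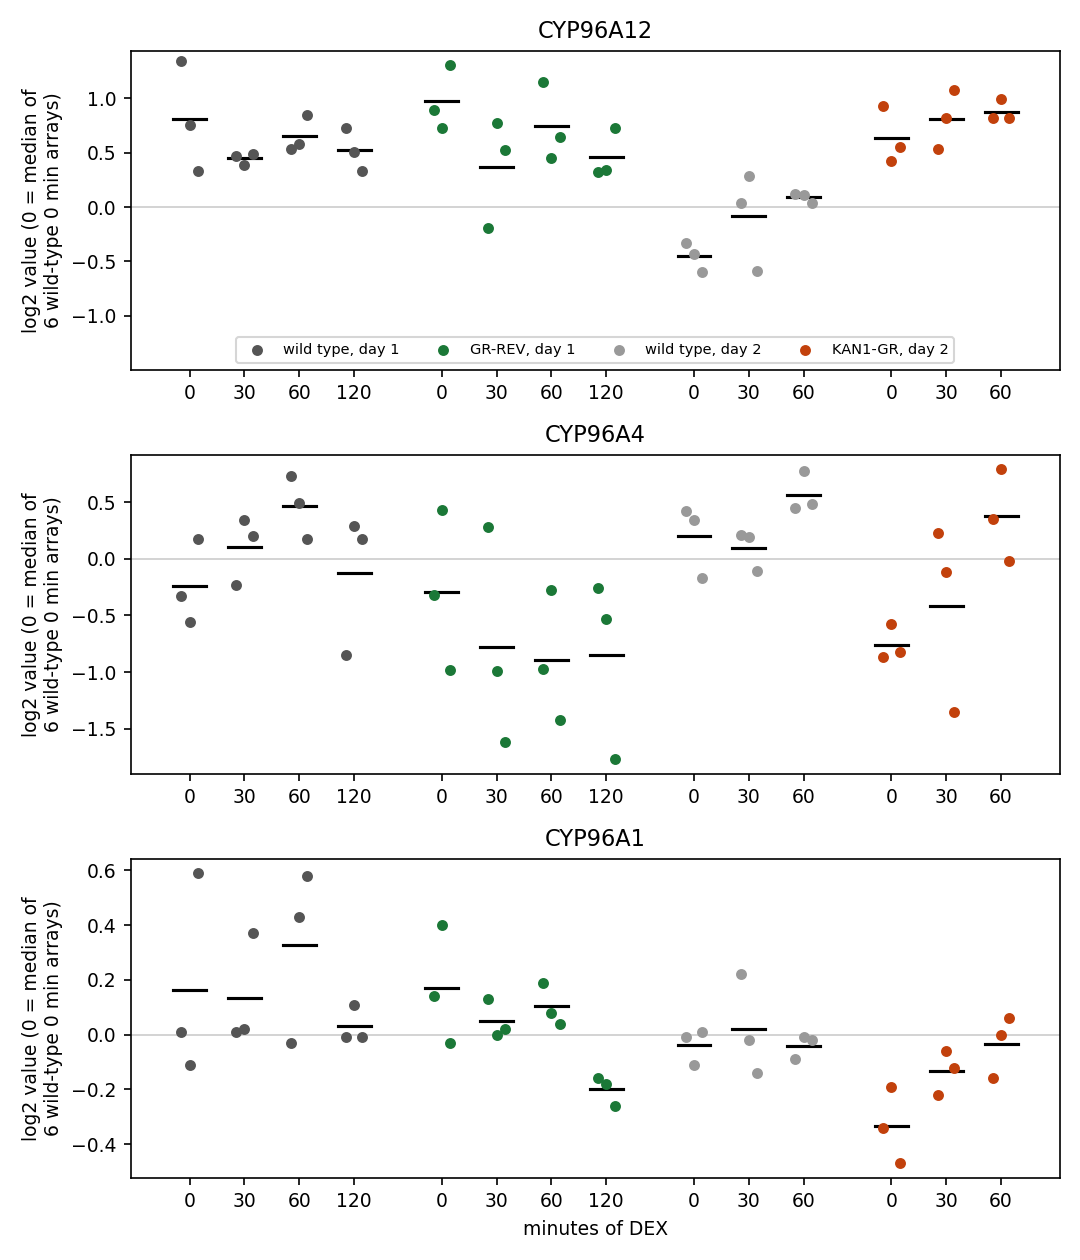
CYP96A12, CYP96A4 and CYP96A1 on each of the 42 arrays, as log2 values relative to wild type at 0 min (y axes, of different range) by minutes of DEX (x axis), with points for arrays and bars for the means of 3. For CYP96A12 the 9 KAN1-GR arrays, between 0.42 and 1.08, lie above the 9 wild-type arrays of day 2, between -0.60 and 0.29.

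CYP96A4 (AT5G52320) was the most variable member between replicates, with a residual SD of 0.545 and arrays from -1.77 to 0.79. In GR-REV at 60 min it read -0.97, -0.28 and -1.42, below 0.73, 0.49 and 0.17 in wild type, so that the groups did not overlap. The difference at that time was -1.36 and passed when that time was compared alone (limma adjusted p = 0.0274). The response, which also subtracts the 0 min difference, was -1.31 ± 0.59 (95% interval -2.51 to -0.10) and did not pass (limma, unadjusted p = 0.035, adjusted p = 0.267).

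At 0 min the GR-REV arrays of CYP96A4 already ranged widely, at -0.32, 0.43 and -0.98, and they read 0.28, -0.99 and -1.62 at 30 min and -0.26, -0.53 and -1.77 at 120 min. Responses of -0.83 ± 0.59 at 30 min and -0.67 ± 0.59 at 120 min did not pass (limma adjusted p = 0.701 and 0.658). GR-REV replicate 3 had the lowest value of its group at each of the 4 times, although these were separate flasks and replicate numbers were not found to pair samples.

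In KAN1-GR at 0 min CYP96A4 read -0.87, -0.58 and -0.82, below 0.42, 0.34 and -0.17 in wild type. The difference of -0.95 ± 0.42 did not pass (limma, unadjusted p = 0.0302, adjusted p = 0.145), though it passed after quantile normalisation (-1.33, limma adjusted p = 0.0053) and with array weights (-1.04, limma adjusted p = 0.0107). KAN1-GR then read 0.23, -0.12 and -1.35 at 30 min and 0.35, 0.79 and -0.02 at 60 min, where it overlapped with the 0.45, 0.77 and 0.48 of wild type. In wild type the response was 0.54 ± 0.30 at 60 min (95% interval -0.07 to 1.14, limma adjusted p = 0.392).

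CYP96A1 (AT2G23180) moved little. Its 42 arrays lay between -0.47 and 0.59 with a residual SD of 0.176. In KAN1-GR at 0 min it read -0.34, -0.19 and -0.47, below -0.01, -0.11 and 0.01 in wild type without overlap. The difference of -0.30 ± 0.14 did not pass (limma, unadjusted p = 0.0466, adjusted p = 0.19). In GR-REV at 120 min it read -0.16, -0.18 and -0.26 against -0.01, 0.11 and -0.01, again without overlap, and the response of -0.24 ± 0.20 did not pass (limma adjusted p = 0.64).

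The 6 untested members held close to 0 throughout. Of their 252 values 250 lay within 0.25 of 0, and group means ran from -0.10 to 0.19. In KAN1-GR after DEX they ranged from -0.14 to 0.03. Their residual SDs ran from 0.0198 to 0.108, and the median was 0.0466 over all probe sets that were not tested and 0.186 over those tested. With absolute levels not kept, these values do not say whether the genes were expressed.

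The 2 values beyond 0.25 belonged to different genes and arrays. CYP96A15, the wax alkane hydroxylase MAH1 (AT1G57750), reached 0.64 in wild-type replicate 3 at 60 min of day 1, where replicates 1 and 2 read -0.05 and -0.02. CYP96A8 (AT1G47620) reached 0.44 in wild-type replicate 2 at 120 min, where the other 2 read -0.03 and -0.09. That array held the highest value of 4 of the 6 untested members.

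CYP96A9 lies in a run of 4 family genes on chromosome 4, with CYP96A10, CYP96A11 and CYP96A12 following it in the RefSeq gene table. CYP96A11 (AT4G39500) is not among the listed loci but has a tested probe set. Its KAN1-GR responses were 0.05 ± 0.14 at 30 min and 0.04 ± 0.14 at 60 min. The probe set assigned to CYP96A10 also names the CYP96A9 locus, yet it read -0.04 to -0.02 on the 6 KAN1-GR arrays where the CYP96A9 probe set read 3.04 to 4.64. Which transcripts of this run each probe set detects was not tested, and no sequence of the probes or genes was used here.

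Outside the run, the 4 nearest genes with a probe set on each side did not share the difference. Of these 8, 7 were tested, and their KAN1-GR responses ran from -0.25 (BRI1, the brassinosteroid receptor) to 0.30 (AT4G39530). None of the 7 was called at 30 or 60 min, where 2.4% and 6.84% of tested probe sets were. With 7 genes tested, that count is near those shares. WRKY13, a WRKY-family transcription factor on the same side as BRI1, rose in GR-REV at 120 min by 1.57 ± 0.28 (limma adjusted p = 0.000735). In that comparison 3.84% of tested probe sets were called.

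**Figure D4:**
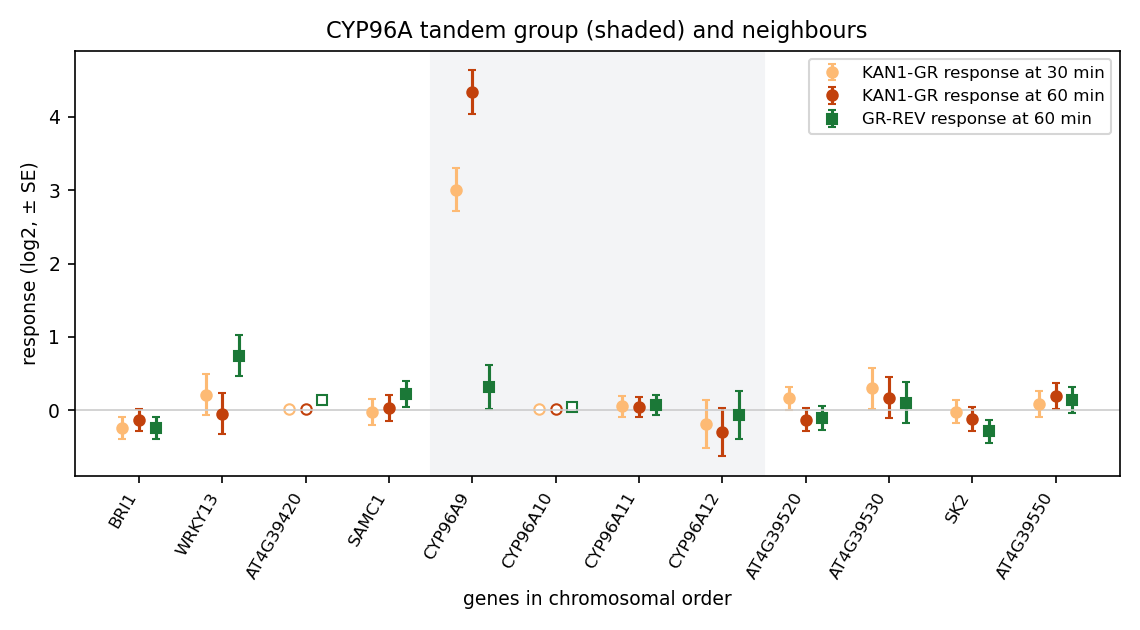
Log2 DEX responses with SE (y axis) of the 4 CYP96A genes of chromosome 4 (shaded) and 4 genes on each side in chromosomal order (x axis). Filled symbols are tested probe sets and open symbols untested ones, shown as differences of group means. CYP96A9 is at 3.01 and 4.34 in KAN1-GR, and the 7 tested flanking genes lie between -0.25 and 0.30 there.

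The group means of the tested members had low correlations with each other. Over the 14 group means, which share arrays across genes, Pearson's r between pairs of the 4 ran from -0.31 (CYP96A4 and CYP96A12) to 0.38 (CYP96A1 and CYP96A4). CYP96A9 and CYP96A12, of the same chromosomal run, had r = 0.33. The r values of CYP96A9 include the KAN1-GR groups after DEX, which chose the family. Residual SDs were 0.545 for CYP96A4 and 0.176 for CYP96A1, with group means from -0.89 to 0.57 and from -0.33 to 0.32. Low r values therefore do not say that the members respond differently. The genes outside the family whose group means were most like those of CYP96A9 were MYB45 (r = 0.98), AT1G77280 (0.97), PP2-A12 (0.96), APK4 (0.96) and AT3G27880 (0.95). MYB45 encodes an R2R3-MYB factor, and APK4 an adenosine-5'-phosphosulfate kinase. Their KAN1-GR responses at 60 min were 3.19, 1.61, 1.39, 1.37 and 1.34. Over the 12 groups other than KAN1-GR after DEX the same r was -0.06, 0.24, 0.13, 0.16 and -0.30, so the likeness rests on those 2 groups.

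Several genes of wax synthesis and export, the pathway in which CYP96A15 acts, fell in each line after 60 min of DEX. Falls and rises of these genes are DEX responses, so a change in wild type enters them as well. The list held 23 loci, of which 21 were tested. In the KAN1-GR response at 60 min 6 of 21 fell and 0 rose, with a median of -0.23 against 0.00 over all tested probe sets, of which 3.96% were called lower. In the GR-REV response at 60 min 5 of 21 fell and 0 rose, with a median of -0.25 against -0.01 and 2.61% called lower. In the same KAN1-GR comparison all 5 shoot epidermis genes had values below 0 (median -0.26), with FDH called (-0.55) and PDF1 at -0.79 not called. Their mean level ran from 0.27 to 0.35 over the KAN1-GR arrays at 0 min and from -0.05 to 0.09 at 60 min, against -0.26 to -0.14 and -0.14 to -0.09 in wild type. In GR-REV at 60 min none of the 5 was called (median -0.17), and the part of these cells in the wax counts was not tested. At the other times few wax genes were called. In the GR-REV responses 0 of 21 were called at 30 min and 1 (CER3, lower) at 120 min, where 1.38% and 3.84% of tested probe sets were. In the KAN1-GR response at 30 min 1 of 21 was called (KCS1, lower), where 2.4% of tested probe sets were.

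KCS1, a ketoacyl-CoA synthase that condenses the growing chain in fatty acid elongation, changed most. Its KAN1-GR arrays lay between -0.50 and -0.25 at 0 min, between -1.25 and -1.19 at 30 min and between -1.57 and -1.42 at 60 min, all below the wild type of the day, which ran from -0.08 to 0.44. Relative to the change in wild type it fell by 1.08 at 30 min and by 1.26 (SE 0.18, limma adjusted p = 1.18e-05) at 60 min. In GR-REV it lay between -0.71 and -0.45 at 60 min against 0.47 to 0.59 in wild type. From 0 to 60 min its mean went from -0.06 to -0.54 in GR-REV and from -0.03 to 0.53 in wild type. Relative to the change in wild type, KCS1 in GR-REV thus fell by 1.03 (SE 0.18, limma adjusted p = 0.00043), and the rise of the wild type is part of that value. At 120 min it was at 0.53 to 0.58, above all 3 wild-type arrays.

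ABCG11, a wax exporter of the plasma membrane, and KCS20, another condensing enzyme, also fell in both lines at 60 min. The responses of ABCG11 were -0.81 in KAN1-GR and -0.64 in GR-REV, and those of KCS20 were -0.65 and -0.69. The lines were set against wild types of different days, so the 2 comparisons share no arrays. KAN1-GR also had falls of CER10, the enoyl-CoA reductase of the elongase (-0.56), CER6, the main condensing enzyme of stem wax (-0.78), and LTPG1, a lipid transfer protein (-0.52). GR-REV also had falls of ABCG12, a partner of ABCG11 (-0.74), and CER3, of the alkane-forming complex (-0.50). Against wild type at 60 min alone CER10 read -0.23 and against its own 0 min alone -0.27, and it passed in neither. KCS20, CER6, LTPG1 and ABCG12 were named after their values were seen.

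**Figure D5:**
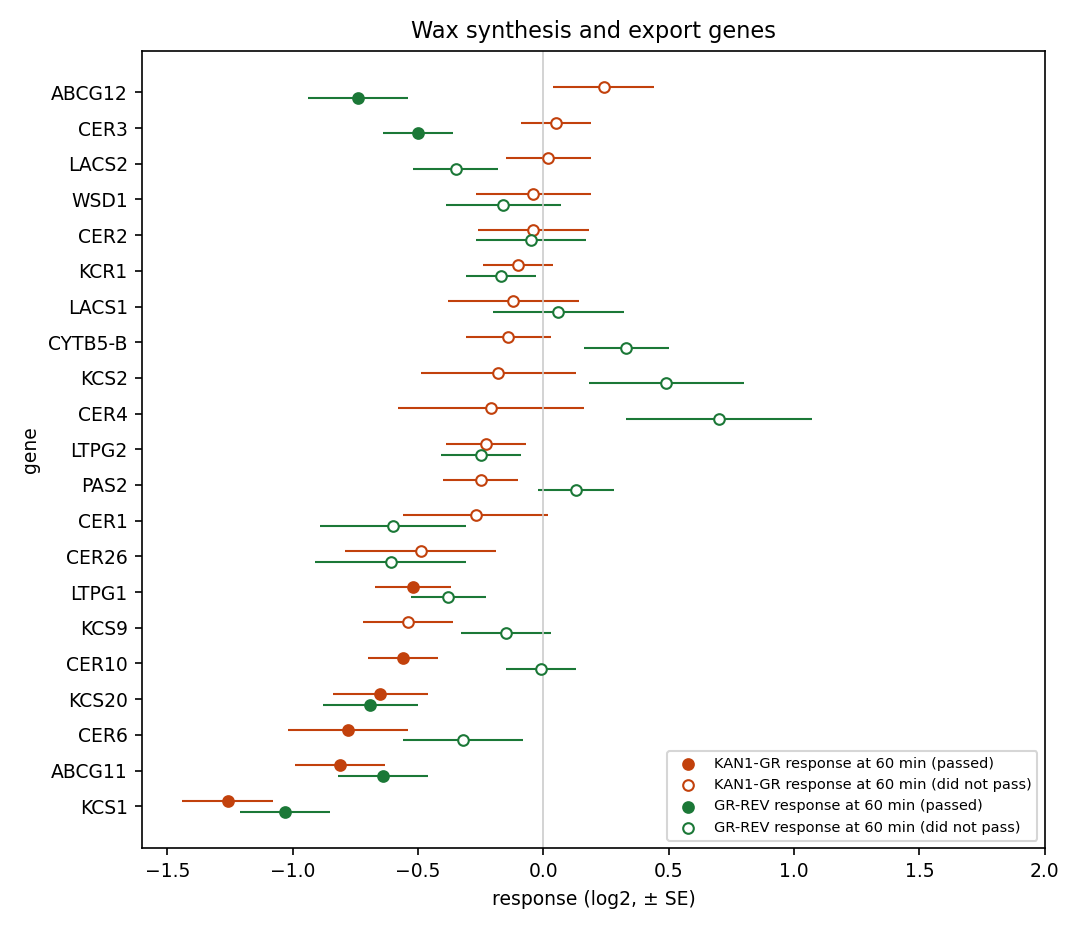
Log2 DEX responses at 60 min with SE (x axis) of the 21 tested wax synthesis and export genes (y axis), in KAN1-GR and GR-REV. Filled points passed the threshold, 6 in KAN1-GR and 5 in GR-REV, all below 0, with KCS1 lowest in both at -1.26 and -1.03.

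The counts of wax genes depended on the setting more than KCS1 did. KCS1 passed in both lines at 60 min under every alternative and on leaving out each array. Against its own 0 min alone, GR-REV at 60 min had 2 wax genes called higher and 6 lower, with a median of -0.12. Against wild type at 60 min alone, KAN1-GR had 1 called higher and 4 lower. In KAN1-GR the count of falls ran from 3 (without wild-type 0 min replicate 6, wild-type 60 min replicate 6 or KAN1-GR 0 min replicate 1) to 8. In GR-REV it ran from 1 to 11, and was 1 after quantile normalisation and without wild-type 0 min replicates 1 or 2 or GR-REV 60 min replicates 2 or 3, 2 without wild-type 60 min replicates 1 or 3, and 3 without wild-type 60 min replicate 2 or GR-REV 0 min replicate 3. ABCG11 kept its call in KAN1-GR under all but 1 alternative (-0.30 against wild type at 60 min alone) and lost it in GR-REV under 10. CER6 lost its call under 11 alternatives, LTPG1 under 5, ABCG12 under 8 and CER3 under 8. KCS20 lost its call under 6 in KAN1-GR and under 9 in GR-REV.

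Some wax genes already differed between the lines and wild type before DEX. In GR-REV at 0 min CER4, the acyl-CoA reductase that makes primary alcohols, was lower by -1.47 ± 0.26 (limma adjusted p = 0.000124), with arrays from -1.64 to -1.30 against -0.45 to 0.59 in wild type, and KCS9 was lower by -0.38, which made 2 of 21 called where 15.9% of tested probe sets were. In KAN1-GR at 0 min PAS2, the elongase dehydratase (0.54), ABCG11 (0.51) and CER10 (0.33) were higher and KCS1 was lower (-0.44), 4 of 21 where 10.7% of tested probe sets were called. The calls of KCS9, CER10, ABCG11 and KCS1 at 0 min were each lost on leaving out at least 1 single array. These 3 higher genes were also among 6 of 21 called lower in wild type on day 2 than on day 1, where 22.9% of tested probe sets were called in either direction, and against the wild types of both days they read 0.24, 0.26 and 0.07 in KAN1-GR and did not pass.

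Among 6 tested wax regulators, MYB30, an R2R3-MYB activator of very-long-chain fatty acid genes, fell in KAN1-GR. Its arrays lay between -0.93 and -0.07 at 30 min and between -0.98 and -0.56 at 60 min, against 0.03 to 0.26 and -0.23 to 0.10 in wild type. The responses were -0.83 at 30 min and -0.89 at 60 min, and the call at 60 min held under every alternative and on leaving out each array. MYB106, a MIXTA-like factor of cuticle and trichome development, rose by 0.71 at 60 min, a call that was lost under 14 alternatives, as that of MYB30 at 30 min was under 10. In the KAN1-GR responses 2.4% of tested probe sets were called at 30 min and 6.84% at 60 min. No regulator was called in the GR-REV responses, where 1.38%, 4.36% and 3.84% of tested probe sets were at 30, 60 and 120 min. At these times the GR-REV responses were -0.62, -0.57 and -0.59 for MYB30 and 0.22, 0.67 and 0.36 for MYB106. The mean of MYB30 in GR-REV was 0.06 at 0 min, then -0.12, -0.10 and 0.10. In wild type of day 1 it was 0.06, then 0.49, 0.46 and 0.68, so the rise of the wild type is part of these responses. At 120 min that rise was called (0.62, limma adjusted p = 0.0178), where 5.13% of tested probe sets were, and the call was lost under 4 alternatives.

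Of 20 other P450s of the CYP86 clan 8 were tested. None of the 8 was called in the GR-REV responses, where 1.38%, 4.36% and 3.84% of tested probe sets were at 30, 60 and 120 min. CYP94B1, a hydroxylase of the jasmonate hormone conjugate JA-Ile, was the 1 called in KAN1-GR (1.69 ± 0.42 at 60 min, limma adjusted p = 0.00984). In the KAN1-GR responses 2.4% of tested probe sets were called at 30 min and 6.84% at 60 min. With 8 genes tested, these counts are near those shares. Its KAN1-GR arrays at 60 min ran from 0.03 to 1.08 and its wild type of day 2 from 0.27 to 1.66 at 0 min and -0.05 to 0.22 at 60 min. Set against wild type at 60 min alone the value was 0.60 and did not pass, against its own 0 min alone it was 0.67 and did not pass, against the wild types of both days it was 1.07 and did not pass, and without wild-type 0 min replicate 6 it was 1.40 and did not pass.

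CYP94B3 and CYP94C1, which oxidise the same conjugate, were higher in GR-REV than in wild type before DEX by 2.50 ± 0.56 and 2.10 ± 0.42. They passed (limma adjusted p = 0.00198 and 0.000592) and made 2 of 8 called where 15.9% of tested probe sets were. Their GR-REV arrays at 0 min ran from 0.23 to 3.24 and from 1.48 to 3.01, above all 3 wild-type arrays for each gene. CYP86A2, a fatty acid hydroxylase of cutin synthesis, rose in wild type after DEX, by 0.44 at 60 min and 0.81 at 120 min. It was the 1 of 8 called at each time, where 2.33% and 5.13% of tested probe sets were. On day 2 alone its value at 60 min was 0.22 and did not pass. The call at 60 min was also lost without wild-type 0 min replicate 2 (0.38) or replicate 6 (0.36).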

How the data were processed

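The authors deposited log2 values made with GCRMA, per the submitters' processing notes. Its version is not given in the sources used here, and base 2 follows from the method. Every probe set has a median of 0 over the 6 arrays of wild type before DEX, as checked on the values, so levels are not kept. A second deposited table held the same values and p-values of the authors' 2-way ANOVA, a unit other than expression, for 16164 probe sets. The criterion behind the 6646 blanks is not given. Loci came from the deposited table and symbols from RefSeq (assembly TAIR10.1).

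All 42 arrays entered a linear model in limma 3.58.1 (R 4.3.3) that gives every group its own mean (28 residual and 3.92 prior degrees of freedom), with two-sided moderated tests. Probe sets with an ANOVA p-value, less 35 controls, were tested (16129). The script was tested on simulated data. The labels give a flask per sample but no further separation of replicates, so p-values measure the spread between flasks. Replicate numbers were not found to pair samples. Deviations correlated over 0.1 in 26 of 84 same-number pairs of day 1 and 3 of 18 of day 2. Among pairs of different numbers this held for 53 of 168 and 10 of 36.

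The members and lists were chosen with earlier results of these data known. Named were the members, other CYP96A loci, 4 genes on each side of the chromosome 4 run, the 5 genes most like CYP96A9, and up to 6 genes per list by lowest adjusted p outside the KAN1-GR responses. Other list genes in the text were chosen after their values were seen. The lists were wax synthesis and export, wax regulators, other CYP86-clan P450s, shoot epidermis, root epidermis and root hair, root ground tissue (3 genes tested) and green tissue (1 tested). Alternatives were quantile normalisation, median centring, all probe sets, array weights, a replicate block, other references and leaving out each array.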

Additional observations from a re-analysis of the deposited data

How the results depend on the processing

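Most counts of called members stayed the same. Those that moved did so with another reference, quantile normalisation, array weights or a left-out array, and the cause was not tested. Against wild types of both days the count became 1 for GR-REV at 0 min (CYP96A12, 0.80) and 0 for KAN1-GR at 0 min. Against the wild type of that time alone it became 1 for the GR-REV responses at 30 and at 60 min and 2 for the KAN1-GR responses at 30 and at 60 min, where CYP96A12 turned from negative to 0.90 and 0.79. Against its own 0 min alone GR-REV at 30 min gave 1. Quantile normalisation and array weights each gave 2 members for KAN1-GR at 0 min. For the day difference of the wild-type response quantile normalisation gave 1 member at 30 min and 1 at 60 min, and array weights 2 at 30 min. Leaving out single arrays gave 0 to 1 members for GR-REV at 30 min, the 1 coming without GR-REV 30 min replicate 3. The CYP96A9 response in KAN1-GR moved to 3.44 at 30 min against its own 0 min alone and to 3.69 at 60 min after quantile normalisation. Of 218 member counts under alternatives 205 stayed the same. Over all tested probe sets, alternatives other than leaving out arrays gave 703 to 4308 calls for KAN1-GR at 0 min (main 1730), 61 to 2749 for GR-REV at 30 min (223), 286 to 2921 at 60 min (704) and 232 to 2489 at 120 min (619). They gave 362 to 2266 for KAN1-GR at 30 min (387), 1011 to 2898 at 60 min (1103), 1211 to 4376 for GR-REV at 0 min (2558) and 3240 to 6047 between days (3701). For wild-type responses they gave 97 to 3208 at 30 min (624), 77 to 971 at 60 min (376) and 670 to 1580 at 120 min (828), and for the day differences 511 to 3317 (557) and 209 to 1808 (225). The replicate block changed no member's call, with counts of 1 for KAN1-GR at 0 min and 1 for the days, and 1698 calls over all probe sets for KAN1-GR at 0 min. It ended 14 calls of list genes, among them ABCG11 in GR-REV at 60 min (-0.64) and MYB106 in KAN1-GR at 60 min (0.71). The number of arrays limits what small differences can pass.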

Other observations

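Beyond the 10 listed loci the RefSeq gene table names CYP96A7, CYP96A11, CYP96A13 and CYP96A14P, which makes 14 family loci on 4 chromosomes. CYP96A11, CYP96A13 and CYP96A14P have a probe set, and no probe set names CYP96A7. CYP96A11 read -0.23 to 0.50 over the 42 arrays, its highest value on GR-REV replicate 3 at 120 min, where the other 2 replicates read -0.04, and it was called in no comparison. CYP96A13 read -0.16 to 0.32 and CYP96A14P -0.04 to 0.07, and neither was tested.

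Across the 14 group means, and chosen after the values were seen, CYP96A12 had Pearson's r of 0.64 with PDF2, 0.55 with PDF1, 0.45 with ATML1 and 0.41 with ACR4, all shoot epidermis genes, and -0.08 with FDH. With the 4 root epidermis and root hair genes it had r of -0.56 to -0.67. Among the root ground tissue genes it had r of 0.59 with SCR, -0.13 with SHR and -0.35 with CASP1. The r with SCR was above those with PDF1, ATML1 and ACR4, so positive values were not limited to shoot epidermis genes. CYP96A9 had r of -0.73 with FDH, a condensing enzyme of the epidermis that was called lower in KAN1-GR at 60 min. With the other shoot epidermis genes it had r of 0.20 (ATML1), -0.08 (PDF2), -0.19 (PDF1) and 0.18 (ACR4). With the root epidermis, root hair and root ground tissue genes it ran from -0.28 (GL2) to 0.23 (CASP1). The r values of CYP96A9 include the KAN1-GR groups after DEX, which chose the family. These group means share their arrays, so the values are descriptions.

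Markers of inner root and green tissue were called in some comparisons. CASP1, of the root endodermis, was lower in GR-REV than in wild type at 0 min (-1.47, limma adjusted p = 1.94e-07), lower in wild type after 30 min of DEX (-0.55) and higher in wild type on day 2 than on day 1 (0.49). Over all tested probe sets 15.9%, 3.87% and 22.9% were called in these 3 comparisons. On day 2 alone the 30 min value of CASP1 was -0.21 and did not pass. Its difference between days lost its call under 6 alternatives, with 0.34 under the replicate block. SCR, another endodermis gene, was lower on day 2 (-0.50, lost without wild-type day 2 replicates 5 or 6), and SHR was called in no comparison. The green tissue gene PSBO1, a subunit of photosystem II, was lower in GR-REV at 0 min (-0.41). Its GR-REV responses were 0.48 at 60 min and 0.43 at 120 min, both called, where 4.36% and 3.84% of tested probe sets were. Set only against the wild type of each time, PSBO1 read 0.07 and 0.02 and did not pass, nor did its responses pass after quantile normalisation (0.41 and 0.43). In the KAN1-GR responses none of these 4 genes was called, where 2.4% of tested probe sets were at 30 min and 6.84% at 60 min.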
